A study of Mus musculus with 1047 samples.

Results

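Ighm, Ighd, Cd79a, Cd79b and Bank1 are 5 genes best known from B cells, and their levels were followed in brain microglia of aged mice. They are 5 of the 20765 genes in the droplet table of aged brain cells. They were chosen by the share of microglia with a transcript, set against the other barcodes of that table by barcode ending, and by their levels in tissue and genotype groups of cells sequenced singly on plates. Shares and levels from those groups therefore chose the genes, and they are given below as a description with no test. A microglial barcode was one with 30 or more unique molecular identifiers (UMIs, each standing for 1 captured transcript) of P2ry12, Cx3cr1 and Trem2 together per 10000 UMIs. This gate took 11163 of 21197 barcodes and left 10034 others.

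Most of the series' samples are single cells read by Smart-seq2, a plate method that counts reads without molecular identifiers, and the rest are 10x droplet libraries. On plates, 297 white and 267 grey matter cells came from animals labelled Trem2ko, for the microglial lipid receptor Trem2, and 136 white and 147 grey matter cells from wild type (WT) C57BL/6J mice. Their age was 18 to 20 months, and 28 months for A13. White matter held the optic tract, medial lemniscus and corpus callosum, and grey matter was frontal cortex. A further 75 prefrontal cortex cells came from 5xFAD mice, a line that expresses mutant human amyloid precursor protein and presenilin transgenes in neurons and deposits amyloid. These mice were 7 months old and female, except A187, a male of 5 months, and 41 cells came from female WT mice of 6 or 7 months. All of these cells had been dissociated with actinomycin at 45 uM, which blocks transcription, and sorted as live cells positive for CD45 and CD11b, a gate that other myeloid cells also pass. Another 75 cells came from 1 pool of 3 WT mice of the CX3CR1-GFP strain at postnatal day 14, in prefrontal cortex. Their titles name actinomycin, while the extraction notes say that GFP-positive cells of this strain were dissociated with or without it. The droplet libraries came from pooled males with no named sort, 3 of grey and 2 of white matter titled WT at 24 months, and 4 of white matter from ApoeKO mice (B6.129P2-Apoetm1Unc/J) at 18 months. The droplet tables name barcodes by endings or prefixes that no label ties to a library, so each table is 1 sample and tissue cannot be compared in it.

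A B cell receptor is a membrane antibody: a heavy chain, whose constant part is encoded by Ighm (mu) or Ighd (delta), and a light chain such as that of Igkc. It signals through a pair of membrane proteins encoded by Cd79a and Cd79b, whose tails carry immunoreceptor tyrosine-based activation motifs (ITAMs). Lyn and Syk act on these motifs, and Bank1 encodes a B cell scaffold protein that binds Lyn. Microglia are known to signal through another ITAM adaptor, Tyrobp, which pairs with Trem2, and through Fcer1g, which pairs with Fc receptors.

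On GRCm38, Ighd (ENSMUSG00000104213) lies at chr12:113406604-113416324 and Ighm (ENSMUSG00000076617) at chr12:113418558-113422730, both on the minus strand and 2233 bases apart. In B cells both are spliced from 1 long precursor. Cd79b (ENSMUSG00000040592) lies at chr11:106311341-106314762 and Bank1 (ENSMUSG00000037922) at chr3:136053363-136326066, both on the minus strand. Cd79a (ENSMUSG00000003379) lies on the plus strand at chr7:24897381-24902197. The antisense gene Gm31243 overlaps Bank1, and where counting did not use strand their reads cannot be told apart. RefSeq promoters of GRCm38.p6, from 250 bases before to 50 bases after the gene start, were at hand for Cd79a and Bank1. They are shown because both genes mark B cells, while their shares in microglia lay far apart, as given below. Capitals mark the E box CACCTG on either strand.
Bank1, chr3:136326017-136326316, minus strand: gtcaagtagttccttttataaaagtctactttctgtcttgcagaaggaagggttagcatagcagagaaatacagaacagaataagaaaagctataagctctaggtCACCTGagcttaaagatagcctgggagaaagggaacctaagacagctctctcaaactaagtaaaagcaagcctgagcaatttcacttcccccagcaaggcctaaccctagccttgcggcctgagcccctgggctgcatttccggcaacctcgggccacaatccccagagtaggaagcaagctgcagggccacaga
Cd79a, chr7:24897247-24897546, plus strand: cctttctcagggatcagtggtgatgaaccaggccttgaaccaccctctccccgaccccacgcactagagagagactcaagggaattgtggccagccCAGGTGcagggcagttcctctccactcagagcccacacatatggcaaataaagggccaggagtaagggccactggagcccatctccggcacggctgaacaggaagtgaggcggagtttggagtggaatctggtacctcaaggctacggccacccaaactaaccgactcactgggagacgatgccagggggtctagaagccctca
Each promoter held 1 such E box, 145 bases before the start in Bank1 and 154 bases before it in Cd79a. At least 1 was found in 20.2% of 32851 mouse promoters of the same length. Neither held the octamer ATGCAAAT (in 1.74% of promoters), the palindrome of early B cell factor (0.904%) or the PU.1 site GAGGAAGT (3.20%), searched on both strands. Each of these sites was searched as 1 fixed pattern of letters, and variants with other letters were not searched. The missing matches therefore do not show that either promoter lacks binding sites of these factors. The G and C content was 48.7% in the Bank1 promoter and 58.3% in that of Cd79a.

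The microglial gate was checked against 10 microglial markers, of which its barcodes held 9.62 on average, and 99.9% held 3 or more. None of its 11163 barcodes held 3 or more of 12 B cell markers, against 59 of the other 10034. Summed over the 12 markers there were 173 UMIs, or 0.0185 per 10000, in microglia and 2467 UMIs, or 0.321 per 10000, in the other barcodes. Pax5 and Pou2af1 were among those at 0 in microglia. In 3194 microglial barcodes (28.6%) 3 or more markers of another class were present, astrocyte markers in most, and values without them are given where they differ. Other barcodes were called by markers, as B cell-like, T cell-like and so on. They were not free of microglial transcripts, since 2844 of them (28.3%) held 3 or more of the 10 microglial markers. Among 1639 barcodes left without a class, 26.4% held Ighm and 8.30% Bank1. Shares in other barcodes are therefore those of a mixed group. A barcode held from 499 to 49936 UMIs, and 41 barcode sequences occurred in more than 1 ending.

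The heavy chain gene Ighm was the member seen in most microglia. It had a UMI in 8109 of 11163 microglia, 72.6% (71.8 to 73.5%, exact binomial 95% interval, counting error only), against 9.64% of other barcodes. By share it ranked 648th among the 20765 genes. Microglia held 2.14 Ighm UMIs per 10000 (2.11 to 2.17, exact Poisson interval), at a median depth of 7666 UMIs per barcode. The counts per microglial barcode were low and spread out, with 0 UMIs in 27.4%, 1 in 25.6%, 2 in 19.3% and 3 in 12.3%, while 1.11% held 8 or more and the highest held 15. Ighm was thus common across microglia at a few UMIs each, whereas the highest other barcode held 7598.

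Bank1, the scaffold gene, had a UMI in 3339 microglia, 29.9% (29.1 to 30.8%), against 3.47% of other barcodes. Its level in microglia was 0.581 UMIs per 10000, and the highest barcode held 8. Cd79b, a signalling chain of the receptor, had a UMI in 1592 microglia, 14.3% (13.6 to 14.9%), against 1.73% of other barcodes. Ighd, the delta heavy chain, had a UMI in 803 microglia, 7.19% (6.72 to 7.69%), against 0.668% of other barcodes.

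Cd79a, which encodes the partner chain of Cd79b, had 8 UMIs in 8 microglia, 0.0717% (0.0309 to 0.141%), against 0.877% of other barcodes. In astrocyte-like barcodes, a class that should lack it, the share was 0.0715% at a median depth of 5843 UMIs, on 3 barcodes. It was 0.968% in endothelial-like, 0.405% in choroid plexus epithelial-like and 0 in 340 ependymal-like barcodes. The part of free RNA in these shares was not tested. Astrocyte-like barcodes held Ighm in 2.53%, Bank1 in 1.19%, Cd79b in 0.310% and Ighd in 0.0953% of 4197 barcodes. T cell-like barcodes held these genes in 16.7%, 2.52%, 3.05% and 0.629%. The microglial shares of these 4 genes lay above all of these values. With each barcode thinned to 2000 UMIs, the shares in microglia were 34.5% for Ighm, 11.3% for Bank1, 4.22% for Cd79b, 2.05% for Ighd and 0.0147% for Cd79a. Thinned astrocyte-like barcodes held 0.944% for Ighm, 0.277% for Bank1, 0.119% for Cd79b and 0.0529% for Ighd.

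**Figure D1:**
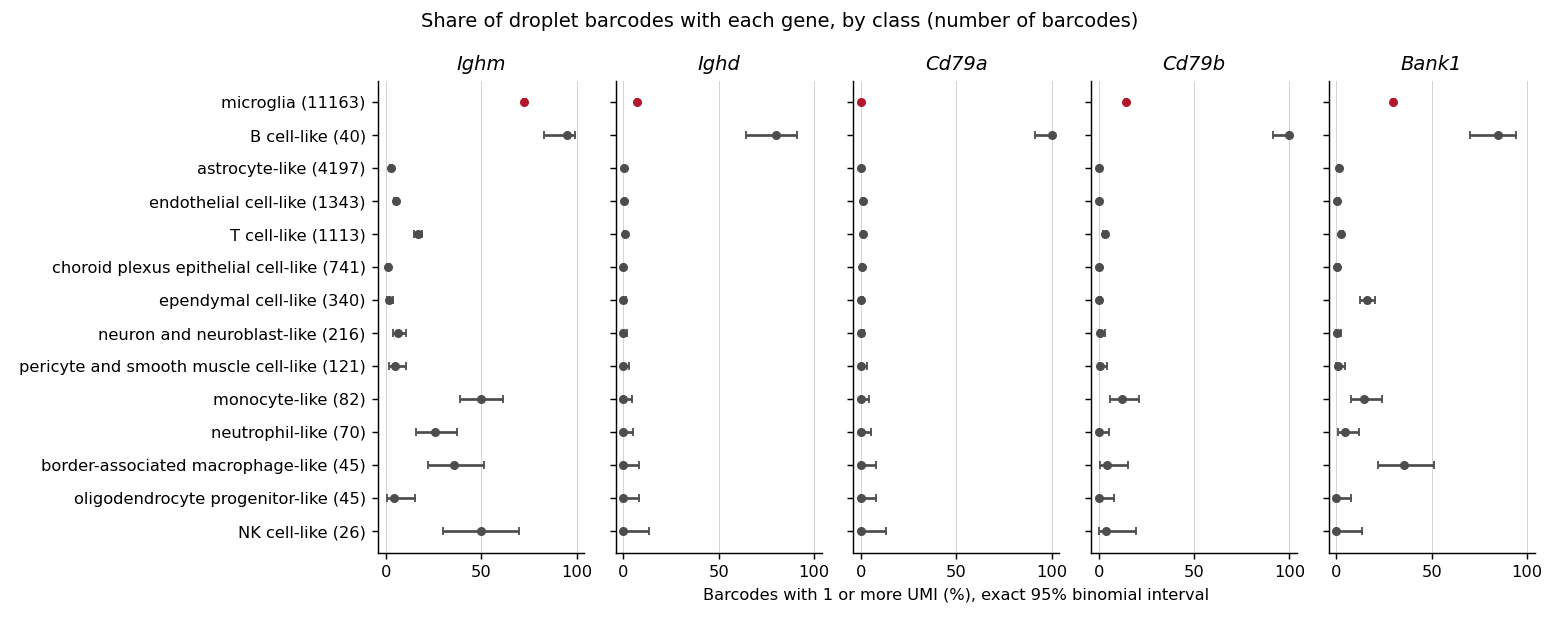
Share of barcodes with a UMI (per cent, horizontal axis), 1 panel for each of the 5 genes, in microglia (top row) and in marker-called classes of other barcodes with their numbers, with exact 95% binomial intervals that cover counting error only. Ighm stands at 72.6% in microglia and 95.0% in B cell-like barcodes, while Cd79a stands at 0.0717% in microglia and 100% in B cell-like barcodes.

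Other myeloid classes carried some of the same genes. Ighm had a UMI in 41 of 82 monocyte-like barcodes (50.0%, median depth 11101.5), in 35.6% of 45 border-associated macrophage-like barcodes (median depth 2172) and in 25.7% of 70 neutrophil-like barcodes. Per 10000 UMIs, which takes depth into account, Ighm was 1.39 in macrophage-like, 1.12 in monocyte-like and 0.696 in neutrophil-like barcodes, against 0.0498 in astrocyte-like and 0.0605 in endothelial-like ones. These myeloid levels lay below the microglial 2.14, although the interval of the macrophage-like level (0.884 to 2.09) came close to it. Bank1 was at 1.46 per 10000 (0.932 to 2.16) in macrophage-like barcodes, above the microglial 0.581, and at 0.157 in monocyte-like ones. Ependymal-like barcodes held Bank1 in 16.2% of 340 at 0.330 per 10000, with Ighm in 1.76% and no UMI of Cd79b. Among NK-like barcodes, 13 of 26 held Ighm and none held Bank1. Ighd and Cd79a had no UMI in the monocyte-, macrophage-, neutrophil- and NK-like barcodes, which, with a floor of 3 barcodes, allows shares of barcodes with a UMI of up to 3.66%, 6.67%, 4.29% and 11.5% in these small classes.

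B cell-like barcodes, 40 in all with a median depth of 4863 UMIs, held the genes in another proportion. Igkc, the kappa light chain, had 30369 UMIs there, or 1123 per 10000, and Ighm had 9151, or 338 per 10000. A single barcode held 18312 of these Igkc and 7598 of these Ighm UMIs, and without it the levels were 538 and 69.3 per 10000 over 39 barcodes. The median barcode held 104 Igkc and 22.2 Ighm UMIs per 10000. Cd79a held 24.4, Cd79b 14.2, Ighd 6.99 and Bank1 4.81 UMIs per 10000. Per UMI of Igkc there were 45.5 UMIs of Ighm in microglia and 0.301 in B cell-like barcodes, or 0.129 without that barcode. Per UMI of Cd79a there were 234 UMIs of Cd79b in microglia and 0.581 in B cell-like barcodes, or 0.589 without it. The ratio of Ighm to Ighd was 22.1 in microglia and 48.4 in B cell-like barcodes, but 8.22 without that barcode, so its direction rests on 1 barcode. These sums pool 5 endings that differ in Igkc outside the gate, and the part of free RNA in the microglial values was not tested. Monocyte-like barcodes held 57.0 Ighm UMIs per UMI of Igkc, on 114 and 2 UMIs.

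All 5 genes together were found in none of the microglia, and in 72.5% of B cell-like barcodes. In microglia, 46.6% of barcodes held 1 of the 5 genes, 28.0% held 2, 6.53% held 3, 0.484% held 4 and 18.4% held none. The table lists 8 variable (V) segment genes of antibodies, the parts joined to a constant region in a rearranged gene. They had 5 UMIs in 5 microglia, against 213 UMIs in 18 other barcodes.

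**Figure D2:**
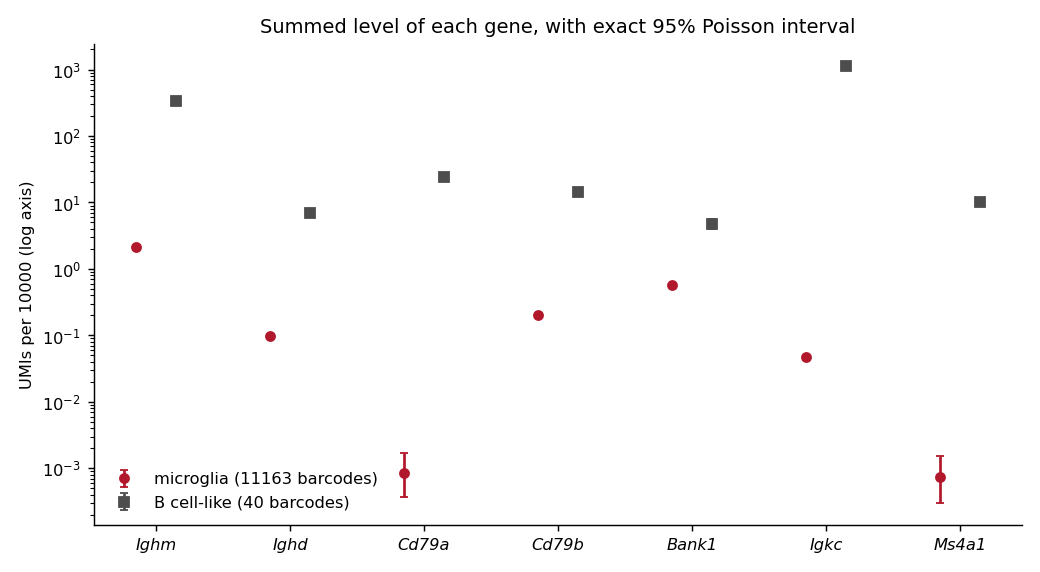
UMIs per 10000 (vertical axis, log scale) of the 5 genes and of Igkc and Ms4a1 in 11163 microglia and 40 B cell-like barcodes, with exact Poisson intervals that cover counting error only. Ighm stands above Igkc in microglia (2.14 and 0.0470) and below it in B cell-like barcodes (338 and 1123, or 69.3 and 538 without the 1 barcode that holds most of both).

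Pooled over the 5 barcode endings, members other than Cd79a were also seen together somewhat more often than apart within microglia. Ighm had a UMI in 80.4% of Bank1-positive and 69.4% of Bank1-negative microglia, at median depths of 7865 and 7564 UMIs. Ighd was found in 8.34% of Ighm-positive and 4.16% of Ighm-negative microglia, whose median depths of 8055 and 6514.5 UMIs differed more. Cd79b was found in 17.4% of Bank1-positive and 12.9% of Bank1-negative microglia. Depth moves with each of these shares, and the pooled endings differ in them. The part of depth and of the endings was not tested. In each of the 5 barcode endings the share of Ighm was higher in Bank1-positive than in Bank1-negative microglia, for example 82.2% and 74.8% in the ending 1_1_1 and 78.2% and 70.0% in 1_2_1. In 1_2_1 the Bank1-positive microglia were the shallower ones, with median depths of 7973.5 and 8666.5 UMIs. Pairs of Ighd with Cd79b or Bank1 did not keep the pooled order in each ending. Cd79b was in 13.5% of Ighd-positive and 14.3% of Ighd-negative microglia of 1_2_1, and in 14.5% and 14.7% in 1_3. Bank1 was in 6.25% of Ighd-positive and 6.83% of Ighd-negative microglia of 1_2_2.

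Of the 5 genes, Bank1 differed most between barcode endings. In the endings 1_1_1, 1_1_2, 1_2_1, 1_2_2 and 1_3, Bank1 had a UMI in 45.3%, 37.7%, 13.1%, 6.81% and 47.7% of microglia. Per 10000 UMIs that was 0.999, 0.831, 0.188, 0.10 and 1.05, a 10.4-fold range in which 1_2_1 and 1_2_2 were low and the other 3 high. Other barcodes did not share that order, with Bank1 in 2.72%, 2.05%, 3.48%, 5.57% and 3.07%, so that in 1_2_2 the share in microglia, 6.81%, lay close to that in other barcodes. Ighm varied less, with 78.1%, 73.2%, 71.0%, 64.6% and 77.2% of microglia and a 1.64-fold range per 10000 UMIs. Ighd ranged from 4.45% in 1_2_2 to 9.49% in 1_1_1, and Cd79b from 11.2% in 1_2_2 to 16.1% in 1_1_2. For Ighm, Ighd, Cd79b and Bank1 alike, the lowest ending was 1_2_2.

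The 2 endings low in Bank1 also differed in genes of the microglial state. Apoe, a lipid carrier that rises in activated microglia, was at 237 and 270 UMIs per 10000 in microglia of 1_2_1 and 1_2_2, against 11.4 to 14.4 in the other 3. P2ry12, a purine receptor of resting microglia, was at 13.5 and 10.8, against 24.6 to 29.0. Median depth in microglia was 8551 and 8501 UMIs there, against 7148 to 7959.5. The endings carry no tissue label, so no group can be given to them, and differences between libraries and between tissues cannot be told apart.

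The light chain gene Igkc moved by ending in another way. Igkc was found in 9.78% of microglia and 12.3% of other barcodes of 1_2_1, where other barcodes held 42.7 Igkc UMIs per 10000. In 1_1_1 it was found in 0.678% of microglia and 1.17% of other barcodes, where it was at 0.577 per 10000. Ighm in microglia was 71.0% in 1_2_1 and 78.1% in 1_1_1, and other barcodes held 12.9 and 0.342 Ighm UMIs per 10000 in these endings. The Igkc share in microglia was highest in 1_2_1 and the Ighm share in 1_1_1. Over the 5 endings, other barcodes ranged from 0.160 to 42.7 Igkc and from 0.196 to 12.9 Ighm UMIs per 10000. The part of free RNA in either share was not tested.

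**Figure D3:**
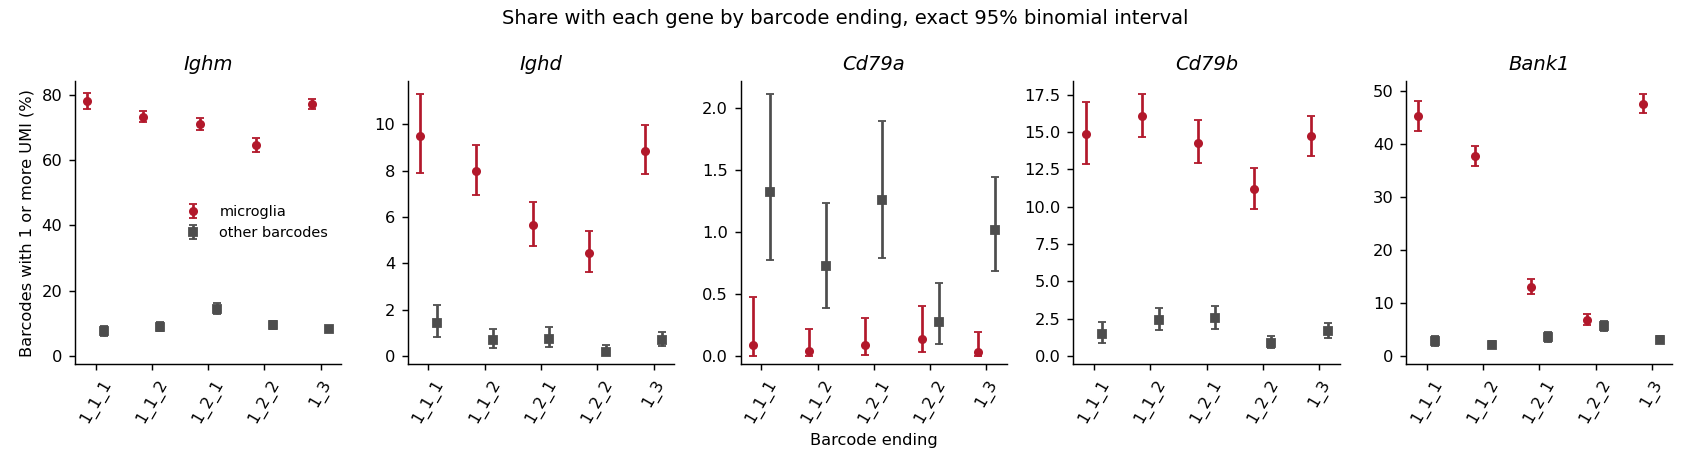
Share of barcodes with a UMI (per cent, vertical axis) of the 5 genes in microglia and in other barcodes, for each of the 5 barcode endings of the aged droplet table (vertical axis scaled per gene), with exact 95% binomial intervals that cover counting error only. Bank1 in microglia spans 6.81 to 47.7% and Ighm 64.6 to 78.1%, while the other barcodes stay at 2.05 to 5.57% for Bank1 and 7.62 to 14.4% for Ighm.

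Microglia with and without a UMI of Lpl, a lipase gene of activated microglia, were set side by side within 1_2_1 and 1_2_2. This split was chosen after its values were seen. In 1_2_1, Bank1 was at 0.0648 UMIs per 10000 in 1124 Lpl-positive microglia and 0.350 in 1228 Lpl-negative microglia. In 1_2_2 it was at 0.0511 in 1021 Lpl-positive and 0.160 in 1138 Lpl-negative microglia. Both Lpl-positive levels lay below both Lpl-negative ones, although Lpl-positive microglia were deeper, with medians of 10581 against 7470 UMIs and 10083 against 7396. Even the Lpl-negative microglia of these endings held less Bank1 than those of the other 3, where it was 0.830 to 1.05 per 10000. Ighm was at 1.58 in Lpl-positive and 2.22 in Lpl-negative microglia of 1_2_1, and at 1.42 and 1.78 in those of 1_2_2. Cd79b was at 0.143 and 0.214 in 1_2_1 and at 0.112 and 0.167 in 1_2_2, in the same order of Lpl-positive and Lpl-negative. Ighd was at 0.0455 and 0.0962, and at 0.0394 and 0.0627. All 4 genes were thus lower per 10000 UMIs in Lpl-positive microglia of both endings, Bank1 by the widest ratio. Shares with a UMI, in that order, were near equal for Ighm: 70.6 and 71.5% in 1_2_1, 64.3 and 64.8% in 1_2_2. They were 14.1 and 14.5%, then 10.6 and 11.7% for Cd79b, and 5.69 and 19.9%, then 4.41 and 8.96% for Bank1. For Ighd they were 4.36 and 6.84%, then 3.92 and 4.92%. The part of the larger UMI totals of Lpl-positive microglia in the lower levels was not tested. In 1_1_1, 1_1_2 and 1_3 only 19, 30 and 40 microglia were Lpl-positive, and the order of levels per 10000 did not hold throughout. Lpl-positive levels were higher for Ighm in 1_1_1 (2.80 against 2.59) and Bank1 in 1_1_2 (0.907 against 0.830). In 1_3 they were higher for Cd79b (0.306 against 0.223) and Ighd (0.183 against 0.134). The remaining levels of these endings were lower in Lpl-positive microglia. These barcodes share libraries, so they are no replicates of a state.

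**Figure D4:**
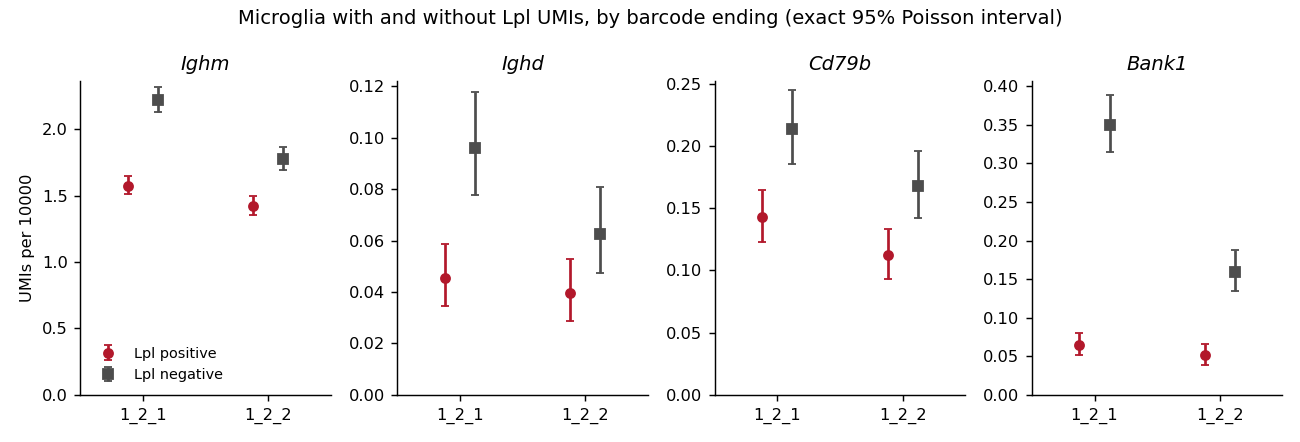
UMIs per 10000 (vertical axis, from 0, scaled per panel) of Ighm, Ighd, Cd79b and Bank1 in Lpl-positive and Lpl-negative microglia of the endings 1_2_1 and 1_2_2, with exact Poisson intervals that cover counting error only. Bank1 is lowest in Lpl-positive microglia of both endings (0.0648 and 0.0511) and Ighm shows a smaller gap.

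By likeness across the 11163 microglia (Pearson correlation of log values, barcodes sharing library and depth, as a description), the nearest genes included P2ry12 and Siglech, which mark resting microglia. P2ry12 is also a gene of the gate, and both P2ry12 and Bank1 differed between the endings pooled here. The part of the endings in these correlations was not tested. For Bank1 the nearest genes were P2ry12 (0.30), the transcription factor gene Maf (0.28), the Fc receptor-like gene Fcrls (0.28), Cd164 (0.27) and the lectin gene Siglech (0.25). For Ighm they were Siglech (0.24), P2ry12 (0.23), Marcks (0.20), Cst3 (0.19) and Gpr34 (0.18). The highest values were 0.092 for Ighd, with P2ry12, and 0.076 for Cd79b, with Csf1r, too weak in such sparse counts to say more. Cd79a was seen in too few microglia to be included. Across 14 classes of barcodes, B cell-like ones among them, the nearest genes were others. Cd79a was most like Iglc3, Ly6d and Pou2af1, Ighd like Ccr6, H2-DMb2 and Siglecg, and Cd79b like H2-DMb2, Ccr6 and Ighd. Ighm was most like Tpm3-rs7 (0.94), Cd79b (0.92) and Slamf6 (0.91), and Bank1 like Cd22 (0.93), Il4i1 (0.88) and Kmo (0.87).

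Other genes of the pathway were followed in 3 lists. Of 42 B cell receptor and ITAM signalling genes, 35 had a UMI in at least 10% of microglia and 20 in at least 50%, with a median share of 44.6%, against 2.43% over all 20765 genes. Of all 20765 genes, 1604 were at 50% or more of microglia, 7402 at 10% or more and 9034 under 1%. The list counts here and below are to be read beside these. The median of the ITAM list was 12.8% in other barcodes and 28.8% in B cell-like ones. Highest of this list in microglia were the ITAM adaptors Fcer1g and Tyrobp (99.7% each), the kinase gene Lyn (92.7%) and the lipid phosphatase gene Inpp5d (91.2%). Blnk, a linker downstream of Syk, was at 65.7%, and Syk and Btk at 40.9% each. Of 25 other B cell identity genes, 15 were under 1% in microglia and 7 at 10% or more, with a median of 0.0717%, against 62.5% in B cell-like barcodes. Highest in microglia were the tetraspanin gene Cd37 (94.4%), the receptor gene Tnfrsf13b (51.6%), Cd83 (37.6%) and Ralgps2 (30.3%). The B cell factor genes Pax5 and Pou2af1 were at 0, and Ebf1 was at 0.860%, against 92.5% in B cell-like barcodes. Of 18 other antibody and plasma cell genes, 15 were in the table and 10 of these were under 1%. Xbp1, a factor of the unfolded protein response, was at 62.8%, Tnfrsf17 at 19.1%, Prdm1 at 15.8% and Igkc at 3.74%.

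The second droplet table, named for ApoeKO, gave 1052 microglia in its columns L7 and L8 by the same gate, at a median depth of 3626.5 UMIs. Ighm was in 51.6% (48.5 to 54.7%) of them, Bank1 in 12.7%, Cd79b in 11.5% and Ighd in 5.32%. Cd79a was in 0 of 1052, which, with the same floor of 3 barcodes, allows a share with a UMI of up to 0.285%. Other barcodes, 1678 with a median depth of 3550 UMIs, held Ighm in 4.77%, Bank1 in 3.81%, Cd79b in 0.358% and Ighd in 0.0596%. Per 10000 UMIs, Ighm was at 2.23, Bank1 at 0.383, Cd79b at 0.324 and Ighd at 0.146 in these microglia, against 2.14, 0.581, 0.200 and 0.0969 in the aged table. No label ties L7 or L8 to a sample. Apoe was at 0.0544 UMIs per 10000 in L7 microglia and 61.5 in L8 microglia, while Ighm was at 2.10 and 2.31 and Bank1 at 0.25 and 0.47. With 1 pool a column group, these are values of libraries and not of genotypes.

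On plates, 4 of the 5 genes were followed in the aged and 5xFAD tables, and Cd79a was not analysed here in them. Ighm had a read in 803 of 845 aged cells (95.0%), Bank1 in 35.5%, Cd79b in 34.8% and Ighd in 11.7%. In the 116 prefrontal cortex cells the shares were 100%, 34.5%, 38.8% and 11.2% in the same order of genes. Many of these cells held few reads. At 10 or more reads, shares in the aged groups were 62.5 to 83.5% for Ighm and 6.40 to 17.6% for Bank1. For Cd79b they were 7.35 to 11.8%, and for Ighd 0 to 4.49%. Per kilobase of exon, mean levels in white matter of animals labelled Trem2ko were 559 CPM (reads per 1000000 reads of the library) for Ighm, 53.4 for Cd79b, 7.40 for Ighd and 5.04 for Bank1, against 367, 29.6, 1.18 and 1.86 in WT white matter. The Ighd value rests on A11, without which it was 1.79 and that of Bank1 5.49. Ighm was the highest of the 4 per kilobase in all 6 groups of cells, Cd79b came next, and Bank1 lay above Ighd in each group except white matter labelled Trem2ko, where it did so without A11.

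Reads were summed per animal and tissue, which gave 23 aged libraries of 570376 to 59663083 reads and 6 prefrontal cortex libraries of 2257198 to 10507116 reads. A sum does not tell fewer cells with a transcript from less RNA per cell. Cells of A11, A12 and A13 came from plates P3 to P8, with a median depth of 549489 reads in white and 513712 in grey matter, against 96175 and 104408 in the other animals labelled Trem2ko. Plates P3 to P8 hold no WT cells, so depth, plate and genotype label cannot be told apart there. Sex also moved with genotype label: A8 and A12 were male and A9, A10 and A11 female, whereas WT animals were male except A1, and its part in the genotype values was not tested. Trem2 ranged from 275 to 2034 CPM in white and 346 to 1455 CPM in grey matter of animals labelled Trem2ko, against 1799 to 3977 and 2131 to 5216 CPM in WT. A12, at 2034 and 1455 CPM, goes against its label in white matter. Differences of mean CPM of the members that involve genotype labels or tissues of animals so labelled are also given without it. Levels per kilobase, shares of cells, fold changes and list medians include A12. The summed B cell markers could not be followed in the aged plate table, since none of the 12 was analysed there. The plasma cell markers at hand, Tnfrsf17 and Prdm1, summed to 1.11 to 75.8 CPM in WT white and 2.51 to 86.9 CPM in WT grey matter.

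Between white and grey matter of the same WT mice, Ighm was lower in white matter in 6 of 6 animals. It was at 507, 558, 674, 743, 779 and 892 CPM in white matter of A4, A6, A7, A5, A2 and A3. In grey matter of the same animals in that order it was at 662, 1841, 1216, 987, 1008 and 1201 CPM. White matter averaged 692 ± 143 CPM and grey matter 1153 ± 392 CPM (SD, n = 6 each), a ratio of 0.601, and the ranges of the 2 tissues overlapped. The highest grey matter value, that of A6, came from 7 cells, and 1 cell gave 59.7% of its Ighm reads. Of all 9925 genes tested in these libraries, 1.52% were lower in white matter in 6 of 6 animals. The rule used this contrast, so nothing is read from that count. The share of cells with an Ighm read was 89.7% in white and 93.1% in grey matter, with A1 included in grey matter.

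Bank1 was lower in white matter in 5 of 6 WT animals, a direction shared by 9.83% of all genes tested in at least 5 of 6. It was at 3.05, 8.01, 31.9, 24.1, 0 and 16.5 CPM in white matter of A4, A6, A7, A5, A2 and A3, against 36.3, 22.7, 17.5, 44.3, 21.2 and 76.9 CPM in grey matter of the same animals. A7 ran the other way. White matter averaged 13.9 ± 12.5 CPM and grey matter 36.5 ± 22.3 CPM (SD, n = 6 each). Bank1 had 209 reads in 136 WT white matter cells, 9.56% of them positive, and 499 reads in 145 WT grey matter cells, 22.1% of them positive, with A1 included. A single cell gave all Bank1 reads of A5 and A6 in white matter and of A6 in grey matter. Elsewhere the cell with most reads gave from 29.5% (A3, grey matter) to 90.9% (A4, white matter). For Cd79b, white matter averaged 42.4 ± 31.7 CPM and grey matter 87.7 ± 92.3 CPM, lower in white matter in 4 of 6 animals. The difference, -45.3 CPM, was -4.06 CPM without A2 and 13.4 CPM without cells holding markers of another class, so it has no stable direction. Ighd was at 0 CPM in both tissues of 3 of 6 animals, and its mean of 2.25 CPM in white matter rested on A7.

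In animals labelled Trem2ko, Ighm was near equal between tissues. It was at 749, 925, 1071, 1270 and 1254 CPM in white matter of A8, A9, A10, A11 and A12, against 678, 1071, 1455, 1271 and 1139 CPM in grey matter. The means were 1054 ± 222 and 1123 ± 289 CPM (SD, n = 5 each), and white matter was lower in 3 of 5 animals. Without A12 the difference of means, white minus grey, was -115 CPM, against -69.0 CPM with it. Bank1 was at 30.0, 53.1, 39.3, 24.4 and 42.0 CPM in white matter, against 74.0, 33.4, 88.1, 54.5 and 148 CPM in grey matter of these animals. It was lower in white matter in 4 of 5, as were 19.9% of all genes tested in at least 4 of 5, with A9 running the other way. The means were 37.8 ± 11.1 and 79.7 ± 43.6 CPM, and the difference was -25.8 CPM without A12 and -41.9 CPM with it. For Cd79b, white matter averaged 76.4 ± 48.0 CPM and grey matter 99.5 ± 60.1 CPM, a difference of -23.1 CPM, and -18.6 CPM without A12. Ighd was at 0 in white matter of A8, A9 and A10, and at 56.7 and 13.6 CPM in that of A11 and A12. Its difference, white minus grey, was 4.25 CPM, 3.86 CPM without A12 and -8.27 CPM without A11.

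**Figure D5:**
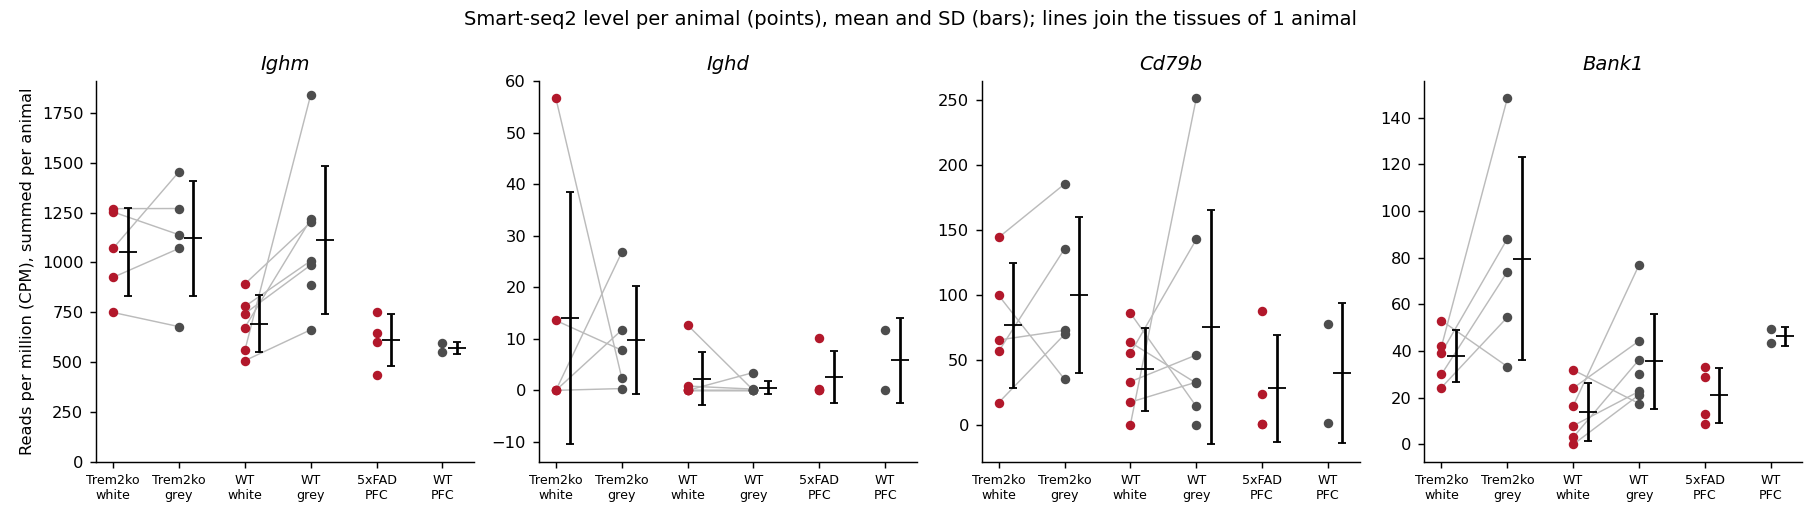
CPM (vertical axis, scaled per gene) of Ighm, Ighd, Cd79b and Bank1 per animal in the plate-based groups, prefrontal cortex (PFC) included, with white matter left of grey matter, lines joining both tissues of 1 animal, and means with SD. Ighm in WT white matter spans 507 to 892 CPM and in WT grey matter 662 to 1841 CPM.

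Between genotype labels in white matter, Ighm was at 749 to 1270 CPM in 5 animals labelled Trem2ko and at 507 to 892 CPM in 6 WT animals. The means were 1054 ± 222 and 692 ± 143 CPM, a difference of 362 CPM, and 312 CPM without A12. A8, at 749 CPM, lay inside the WT range and the other 4 above it. Bank1 averaged 37.8 ± 11.1 CPM in animals labelled Trem2ko and 13.9 ± 12.5 CPM in WT animals, with ranges of 24.4 to 53.1 and 0 to 31.9 CPM that overlapped, a difference of 23.8 CPM, and 22.8 CPM without A12. Ighd averaged 14.1 and 2.25 CPM, a difference of 11.8 CPM that was 11.9 CPM without A12 and 1.14 CPM without A11. Cd79b averaged 76.4 and 42.4 CPM, a difference of 34.0 CPM, and 17.1 CPM without A12. On plates other than P3 to P8, Bank1 in white matter had a read in 15.2% of 99 cells labelled Trem2ko and 9.56% of 136 WT cells, at 40.0 and 16.2 CPM over the summed cells. On plates P3 to P8 that share was 56.1%, at 32.3 CPM. In grey matter labelled Trem2ko, Bank1 was at 68.1% and 105 CPM on plates P3 to P8 and at 18.7% and 70.1 CPM on other plates, against 22.1% and 38.7 CPM in WT. Over all plates, Bank1 had 10 or more reads in 6.40% of white matter cells labelled Trem2ko and 6.62% of WT ones. In grey matter these shares were 17.6% and 11.7%. The part of depth in these shares was not tested.

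In grey matter, Ighm averaged 1123 ± 289 CPM in 5 animals labelled Trem2ko and 1114 ± 372 CPM in 7 WT animals, a difference of 8.45 CPM, and 4.31 CPM without A12. Bank1 averaged 79.7 ± 43.6 and 35.6 ± 20.5 CPM, with ranges of 33.4 to 148 and 17.5 to 76.9 CPM. A12 was the highest, and without it the difference of means was 26.9 CPM, against 44.1 CPM with it. That difference was 10.8 CPM with the mean of per-cell CPM, and 101 CPM with no minimum of cells, which lets A13 in. Cd79b averaged 99.5 ± 60.1 and 75.2 ± 90.5 CPM, a difference of 24.4 CPM that was 2.91 CPM without A12. Ighd averaged 9.81 ± 10.5 and 0.529 ± 1.30 CPM, a difference of 9.28 CPM. That difference was 5.04 to 11.6 CPM under the alternatives, A12 left out among them.

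In prefrontal cortex, Ighm was at 438, 601, 645 and 752 CPM in 4 5xFAD animals, against 549 and 594 CPM in 2 WT animals. The WT values lay inside the 5xFAD range. Bank1 was at 8.86, 12.8, 29.0 and 33.2 CPM in A91, A100, A93 and A99 of 5xFAD, against 43.3 and 49.3 CPM in WT. Every 5xFAD animal lay below both WT animals for Bank1, as did 8.37% of the 9668 genes tested, and nothing is read from it since the rule used this contrast. Single cells made up much of these sums, with 1 cell giving 99.0% of the Bank1 reads of A93, 94.0% of those of A99 and 96.7% of those of the WT animal A132. Cd79b averaged 28.0 ± 41.3 CPM in 5xFAD and 39.5 CPM in WT. Of the 12 B cell markers 2 were followed in this table, and they summed to 0.715 CPM in A93, 0.222 CPM in A99 and 0 in the other 5xFAD and both WT animals.

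The fits across all genes gave the background of these contrasts. With edgeR's quasi-likelihood test at a Benjamini-Hochberg adjusted p of 0.05, 5 of 9925 genes (0.0504%) differed between WT tissues, all higher in white matter, namely Lpl, Apoe, Lyz2, H2-D1 and Ctsh. Between tissues of animals labelled Trem2ko 0 of 9925 genes did (257 at an unadjusted p under 0.05, and 72 called by DESeq2). Between genotype labels the counts were 0 of 8441 in white matter (281 unadjusted, 14 by DESeq2) and 1 of 8350 (0.012%) in grey matter, which was Trem2 itself, lower in animals labelled Trem2ko. Between 5xFAD and WT it was 0 of 9668 (315 unadjusted, 154 by DESeq2).

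Of the 42 B cell receptor and ITAM signalling genes, 39, 39, 36, 34 and 39 were tested in these contrasts and edgeR called 0 in each. At an unadjusted p under 0.05 there were 3, 0, 2, 0 and 1. Over all genes tested, the shares under that p were 5.47%, 2.59%, 3.33%, 2.60% and 3.26% in the same order. DESeq2 called 1, Fgr between WT tissues (log2 fold change 6.60, adjusted p = 0.000293), and 0 in each of the other contrasts. Between WT tissues 22 members were higher and 17 lower in white matter, with a median log2 fold change of 0.17, against 0.07 over all genes. The smallest p belonged to the kinase genes Fgr (log2 fold change 6.52 ± 2.01 SE, adjusted p = 0.652) and Fyn (4.55, adjusted p = 0.850), and to Tyrobp (0.37 ± 0.16, adjusted p = 0.854). In white matter, Tyrobp was lower in animals labelled Trem2ko by a log2 fold change of -0.59 ± 0.22 (SE), which did not pass (adjusted p = 0.999, edgeR). The list's medians in the other contrasts were -0.02 between tissues of animals labelled Trem2ko, -0.09 and 0.01 between genotype labels in white and grey matter, and 0.06 between 5xFAD and WT.

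Other B cell identity genes reached the test in 8, 8, 7, 8 and 8 cases and other antibody and plasma cell genes in 3, 3, 2, 3 and 3, and edgeR called none. The shares over all genes at an unadjusted p under 0.05 are given above. At that p there were 2, 1, 0, 1 and 0 of the first list and 0 of the second in each contrast. Between WT tissues these were Cd72, a B cell coreceptor gene, with a log2 fold change of 6.29 (adjusted p = 0.290), and Cd22, an inhibitory sialic acid receptor gene, with 3.74 (adjusted p = 0.736, both edgeR), both higher in white matter. DESeq2 called Cd72 and Cd22 in that contrast and Cd83, a surface gene of activated B cells, between tissues of animals labelled Trem2ko (log2 fold change 1.38, adjusted p = 0.0114), and 0 of the antibody and plasma cell list in all 5. Bank1, Ighm and Cd79b had fitted log2 fold changes of -1.90, -0.60 and -0.54 between WT tissues, given as a description.

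Cells of postnatal day 14 were not used by the rule and form 1 pool with no replicate. At a median of 42361 reads per cell, Ighm had a read in 63 of 75 cells (84.0%), Bank1 in 43 (57.3%), Cd79b in 38 (50.7%) and Ighd in 6 (8.00%). Over the cells these were 1326 reads of Ighm, 511 of Bank1, 346 of Cd79b and 11 of Ighd. By share of cells the 4 genes followed the order they had in droplet microglia. Cd79a had 25 reads in 21 cells with at most 2 in a cell, and B cell genes lay at like levels, with 45 reads of Igkc in 31 cells and 17 of Ms4a1 in 16 cells. These scattered single reads of B cell genes stand against up to 167 Ighm, 37 Bank1 and 69 Cd79b reads in a cell. Ighd did not stand apart in this way. It had at most 6 reads in a cell, and fewer reads and positive cells than Cd79a, Igkc or Ms4a1.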

How the data were processed

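The deposited tables hold raw counts per gene: reads per cell for Smart-seq2 and UMIs per barcode for 10x, with no normalization by the authors. The submitters' processing notes name mm10, Cell Ranger 4, Trim Galore, FastQC and bcl2fastq, with no role. For Smart-seq2 reads, aligner and counter are not given in the sources used here. All lists and the 5 genes were chosen with earlier results of these data known. For batch 3 of the droplet white matter libraries the title says WT and the genotype field ApoeKO; it was grouped by title. No label ties 11224 further columns of the ApoeKO table to a sample, and they were not used. No doublet caller was run; microglia with 3 or more markers of another class were left out as an alternative. Classes of other barcodes needed 3 or more markers and more than of any other class.

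Plate cells were summed per animal and tissue with 5 or more cells, which left out A13 and A187; repeated columns of 2 wells of A5 were merged, 55 pairs of renamed symbols were joined, and 4473 genes at 0 in 1 part of the aged table were left out. The filter on low counts left 9925, 8441, 8350 and 9668 genes. edgeR 4.0.16 (R 4.3.3) with TMM, filterByExpr and robust dispersion was used, tissues with the animal as a block in 1 fit of 22 libraries, and DESeq2 1.42.0 as an alternative; the scripts were tested on simulated data. Ighm, Cd79b and Bank1 passed the filter in all 5 contrasts and Ighd in 3. The pairing comes from animal names in the labels; deviations of both tissues correlated by 0.0234 to 0.135 in 11 animals, over 0.1 in 1. CPM of members are over all reads of the library, and Trem2 and marker CPM in the report over the genes kept. P-values measure only the spread between these animals. Named genes were the 5 members, per list up to 4 genes of the smallest p in each contrast and up to 4 with the highest share of microglia (not all printed), and the nearest genes by correlation (5 across microglia, 3 across classes). Pax5, Pou2af1, Ebf1, Blnk, Syk, Btk and the genes called by edgeR or DESeq2 were added after their values were seen. Alternatives were the gate at 20 and 50 per 10000, thinning, 2 UMIs, scaling, filters, cells used, the block and each animal left out.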

Additional observations from a re-analysis of the deposited data

Results flagged for a closer look

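Ighd had 1 animal far above the rest in 4 groups of 4 to 7 animals. These were the only marks among 20 pairs of a gene and a group checked, where chance alone marks about 1 in 20. Ighd was at or near 0 in most animals of those 4 groups, so that 1 animal with reads was enough for a mark, and nothing more is read from them. In white matter of animals labelled Trem2ko, A11 held 56.7 CPM and the next animal 13.6 CPM (n = 5). In WT white matter A7 held 12.7 CPM and the next animal 0.833 CPM (n = 6). In WT grey matter A5 held 3.46 CPM and the next animal 0.237 CPM (n = 7). In 5xFAD, A99 held 10.1 CPM and the next animal 0.194 CPM (n = 4). Few cells carried these sums: 1 cell gave 83.5% of the Ighd reads of A99, 50.0% of those of A5, 48.2% of those of A11 and 36.0% of those of A7.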

How the results depend on the processing

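The share of microglia with Ighm, 72.6%, was 71.7% and 74.4% with the gate at 20 and 50 per 10000, 70.6% without barcodes holding markers of another class, 34.5% thinned to 2000 UMIs and 47.0% at 2 or more UMIs. Ighd, 7.19%, was 6.45% without marked barcodes, 2.05% thinned and 0.815% at 2 UMIs, and Cd79b, 14.3%, was 4.22% thinned and 2.12% at 2 UMIs. Bank1, 29.9%, was 32.3% with the gate at 50, 25.6% without marked barcodes, 11.3% thinned and 12.1% at 2 UMIs. Cd79a, 0.0717%, was 0.0147% thinned and 0 at 2 UMIs. Between WT tissues the 5 genes called were 295 with DESeq2, 2 with cells of 50000 or more reads, 1 with no minimum of cells, 3 without marked cells, 10 with no replicate block and 1 to 6 with an animal left out (1 without A5, 3 each without A2, A3 and A4). Between tissues of animals labelled Trem2ko the count of 0 was 72 with DESeq2, 1 with no minimum and 0 to 1 with an animal left out (1 without A4 or A7). Between genotype labels in white matter the count of 0 was 14 with DESeq2 and 0 to 1 (1 without A12) with an animal left out. In grey matter the count of 1 was 11 with DESeq2, 0 with cells of 50000 or more reads, with no minimum and without marked cells, and 0 to 2 with an animal left out (0 without A3, A4, A6, A8, A9, A10 or A11, and 2 without A2). Between 5xFAD and WT the count of 0 was 154 with DESeq2, 16 with no filter on low counts and 0 to 0 with an animal left out. The ITAM list had 1 call with DESeq2 between WT tissues and 0 to 0 with an animal left out. The cause of these shifts was not tested. Bank1 kept its sign under all alternatives run in the 5 contrasts, and so did Ighm between WT tissues (-552 to -292 CPM) and between genotype labels in white matter (194 to 438 CPM). Ighm in grey matter between genotype labels had the other sign in 8 of 16 (-175 to 156 CPM). Ighm turned between tissues of animals labelled Trem2ko (9.93 CPM without A10) and in 5xFAD (-10.2 CPM without A93, -6.38 CPM with no minimum of cells). Cd79b turned between WT tissues (13.4 CPM without marked cells), between tissues of animals labelled Trem2ko (15.5 CPM, mean of per-cell CPM) and in 5xFAD (26.6 CPM without A173). Ighd turned between WT tissues (-0.574 CPM without A7, -0.781 CPM by the mean of per-cell CPM), between tissues of animals labelled Trem2ko (-8.27 CPM without A11) and in 5xFAD (2.57 CPM without A173). Leaving out 1 B cell-like barcode, and A11 from the levels per kilobase, was chosen after seeing the data.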

Other observations

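A13, labelled Trem2ko and the oldest animal at 28 months, gave only 4 white and 2 grey matter cells and entered no comparison. White matter held 46.1 CPM of Ighm and grey matter 23.4 CPM, while the 23 libraries compared ranged from 507 to 1841 CPM. Its Trem2 was at 2737 and 2279 CPM, against its label. In grey matter 1 of its 2 cells held all 2323 Cd79b reads and all 591 Bank1 reads. A187, the 5xFAD male of 5 months with 3 cells, held 390 CPM of Ighm and 2.07 CPM of Bank1.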
